A study of Mus musculus with 9 samples.

Results

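Dapl1, Tekt1, Btc, Parvb and Fbp1 are 5 of the 52636 genes in a table of unique molecular identifier (UMI) counts from single mouse thyroid cells. They were chosen by their lower UMI levels in thyrocytes (the label Th1) of mice given antibodies that block the Notch ligands Jag1 and Jag2, so that difference is given as a description and carries no test. The samples were 9 pools, each of thyroids from 6 male C57BL/6 mice given 1 intraperitoneal injection and labelled 7 days. The 3 RW pools received a control antibody against ragweed (40 mg/kg), and the 3 aJ1aJ2 pools received anti-Jag1 and anti-Jag2, each at 20 mg/kg. The 3 aN1aN2 pools received antibodies that block the receptors Notch1 (5 mg/kg) and Notch2 (10 mg/kg). The labels give the age as 10 to 12 weeks in one place and 10 to 14 weeks in another. The antibodies were given to the whole animal and not to 1 cell type, and their reach into each cell type of the gland was not tested. The values of single animals within a pool are not separable.

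Notch signalling passes between touching cells: a ligand on one cell binds a receptor on the next, the receptor's intracellular part is cut free, and it acts in the nucleus with the DNA-binding protein RBPJ. The thyroid follicle is a sphere of thyrocytes around stored thyroglobulin, wrapped in a dense capillary net. The 5 genes belong to no single pathway. Dapl1 encodes a small protein related to death-associated protein, Tekt1 a tektin filament protein of ciliary and flagellar microtubules, Btc the growth factor betacellulin, a ligand of the EGF receptor family, Parvb the adaptor beta-parvin, which binds integrin-linked kinase at focal adhesions, and Fbp1 the gluconeogenic enzyme fructose-1,6-bisphosphatase.

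In GRCm38, Dapl1 (ENSMUSG00000026989) lies on chromosome 2 at 59484653 to 59505020 on the plus strand. Tekt1 (ENSMUSG00000020799) lies on chromosome 11 at 72344722 to 72362442 on the minus strand. Btc (ENSMUSG00000082361) lies on chromosome 5 at 91357261 to 91402994 on the minus strand. Parvb (ENSMUSG00000022438) lies on chromosome 15 at 84232043 to 84315688 on the plus strand. Fbp1 (ENSMUSG00000069805) lies on chromosome 13 at 62864753 to 62888282 on the minus strand. All 5 are annotated as protein coding, and none overlaps another annotated gene.

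RefSeq (GRCm38.p6) gave 6 promoter windows for the 5 genes, 2 of them for Tekt1, each from 250 bases before to 50 bases after a transcript start. The windows of the members with the largest falls are shown, and all motif matches in them are marked. The Dapl1 window is chr2:59484403-59484702 on the plus strand. Its capitals mark TTCCCA, the reverse complement of the RBPJ core TGGGAA, starting 146 bases before the transcript start, and a TATAAA that starts 29 bases before it. The first Tekt1 window is chr11:72361833-72362132 on the minus strand. Its capitals mark 5 matches to GTTNCC or its reverse GGNAAC, the half-site of RFX factors, which act on ciliary genes. The match nearest to the transcript start begins 15 bases before it.
Dapl1 promoter: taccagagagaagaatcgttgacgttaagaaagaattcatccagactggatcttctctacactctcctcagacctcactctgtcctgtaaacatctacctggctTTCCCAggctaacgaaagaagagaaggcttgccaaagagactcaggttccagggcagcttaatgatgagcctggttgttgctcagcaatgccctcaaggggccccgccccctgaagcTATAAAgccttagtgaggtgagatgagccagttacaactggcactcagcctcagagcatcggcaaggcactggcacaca
Tekt1 promoter: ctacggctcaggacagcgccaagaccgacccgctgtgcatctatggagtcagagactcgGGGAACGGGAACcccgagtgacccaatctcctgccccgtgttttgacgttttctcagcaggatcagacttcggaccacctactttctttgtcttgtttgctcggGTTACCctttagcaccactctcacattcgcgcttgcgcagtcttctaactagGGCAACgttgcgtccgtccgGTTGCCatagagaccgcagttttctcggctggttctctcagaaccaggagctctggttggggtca
The RBPJ core was found on either strand in 25.6% of all 32851 windows, TATAAA or its reverse in 13.6%, and the RFX half-site in 45.3%. The RBPJ core and TATAAA were each found in 1 of the 6 member windows and the RFX half-site in 2, the first of Tekt1 and that of Fbp1. The windows of Btc and Parvb and the second of Tekt1 held none of the 3. The motifs were chosen after the sequences had been read, and their marked matches do not overlap. A match describes the letters and does not show that a factor binds there.

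The deposited table held 10186 cells with 63121420 UMIs under 16 labels of the authors. Th1 held 1169 cells, 425 from RW, 396 from aJ1aJ2 and 348 from aN1aN2, and 1 barcode among them occurred in 2 libraries. Of 8 thyrocyte markers, among them Tg, none was at 0 in Th1, and their summed level lay between 85700 and 116000 plain CPM in every pool. In RW 1 the sum of 94700 was mostly Tg. There Tg alone stood at 81600 plain CPM in cells with a Dapl1 UMI and at 96300 in cells without. Plain CPM means the UMIs of a gene or list scaled to 1000000 UMIs of the cells named. Depth differed: the median Th1 cell held 12535 to 22558 UMIs in the RW pools, 9968 to 15314 in aJ1aJ2 and 5737 to 7558 in aN1aN2. The title numbers fall into 3 series. RW 3 and aJ1aJ2 1 form series A, the other RW and aJ1aJ2 pools form series B, and the 3 aN1aN2 pools alone form series C, so receptor blockade and series C cannot be told apart. Markers of other cells in Th1 also varied: summed C cell markers ran from 440 to 1110 plain CPM in RW, from 54.8 to 2630 in aJ1aJ2 and from 1020 to 1890 in aN1aN2, endothelial markers from 376 to 532, 214 to 481 and 84.8 to 401, and parathyroid markers from 10.0 to 48.5, 19.7 to 69.1 and 125 to 294. Schwann cell markers were lower in both blockades with no overlap between groups, at 241 to 277 in RW, 175 to 218 in aJ1aJ2 and 110 to 135 in aN1aN2, and 1 of the 5 was at 0 in all Th1 cells. Markers of thymic or tracheal epithelium were at 374 to 407, 359 to 547 and 205 to 250, and B cell markers at 18.9 to 22.7, 19.8 to 27.2 and 37.6 to 52.7. The part of all these markers in the results below was not tested.

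Dapl1 was the member with the largest fold between RW and aJ1aJ2. Its level in CPM, which in tested comparisons is scaled to the TMM-adjusted library total, was 34.8, 48.6 and 17.6 in RW 1, 2 and 3, 9.14, 3.49 and 1.75 in aJ1aJ2 1, 3 and 4, and 0, 0 and 1.21 in aN1aN2 1, 2 and 3. The 3 groups did not overlap, an order seen in 3.02% of all genes tested, and every aN1aN2 pool lay under every aJ1aJ2 pool, as in 18.5%. The group means were 33.7 ± 15.6 CPM in RW, 4.79 ± 3.86 in aJ1aJ2 and 0.403 ± 0.698 in aN1aN2 (SD, n = 3 each). These values rest on 319, 35 and 1 UMIs. The log2 change of aJ1aJ2 against RW was -2.79 (SE 0.443).

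Tekt1, the tektin filament gene, stood at 114, 103 and 50.1 CPM in the RW pools, at 48.4, 9.77 and 9.34 in aJ1aJ2, and at 8.23, 12.1 and 7.25 in aN1aN2. aJ1aJ2 1 lay just under RW 3, while aJ1aJ2 3 and 4 lay within the range of the receptor blockade. The means were 89.2 ± 34.3, 22.5 ± 22.4 and 9.20 ± 2.57 CPM (SD, n = 3 each), from 925, 148 and 41 UMIs. The log2 change of aJ1aJ2 against RW was -2.09 (SE 0.442). In aJ1aJ2 1, 1 cell held 21 of the 90 UMIs of Tekt1, which is 23.3%.

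Btc, the EGF family ligand, was at 19.3, 25.0 and 21.1 CPM in RW, at 6.45, 8.61 and 11.1 in aJ1aJ2 and at 13.7, 10.3 and 8.46 in aN1aN2. All 6 blocked pools lay under all RW pools, and the blocked groups overlapped each other. The means were 21.8 ± 2.90, 8.72 ± 2.32 and 10.8 ± 2.67 CPM (SD, n = 3 each), and the log2 change of aJ1aJ2 against RW was -1.29 (SE 0.226). Parvb, the focal adhesion adaptor, followed the same order. It was at 32.2, 25.6 and 19.7 CPM in RW, at 12.4, 10.9 and 8.75 in aJ1aJ2, and at 12.1, 11.5 and 10.9 in aN1aN2. Its means were 25.8 ± 6.24, 10.7 ± 1.82 and 11.5 ± 0.595 CPM (SD, n = 3 each), with a log2 change of aJ1aJ2 against RW of -1.26 (SE 0.220).

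Fbp1, the enzyme that removes a phosphate from fructose 1,6-bisphosphate, was at 89.2, 61.4 and 66.1 CPM in RW, at 35.5, 38.6 and 23.3 in aJ1aJ2 and at 23.6, 15.8 and 20.6 in aN1aN2. The blocked pools all lay under the RW pools, and aJ1aJ2 4 lay just under aN1aN2 1. The means were 72.2 ± 14.9, 32.5 ± 8.08 and 20.0 ± 3.95 CPM (SD, n = 3 each), and the log2 change of aJ1aJ2 against RW was -1.13 (SE 0.184).

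**Figure D1:**
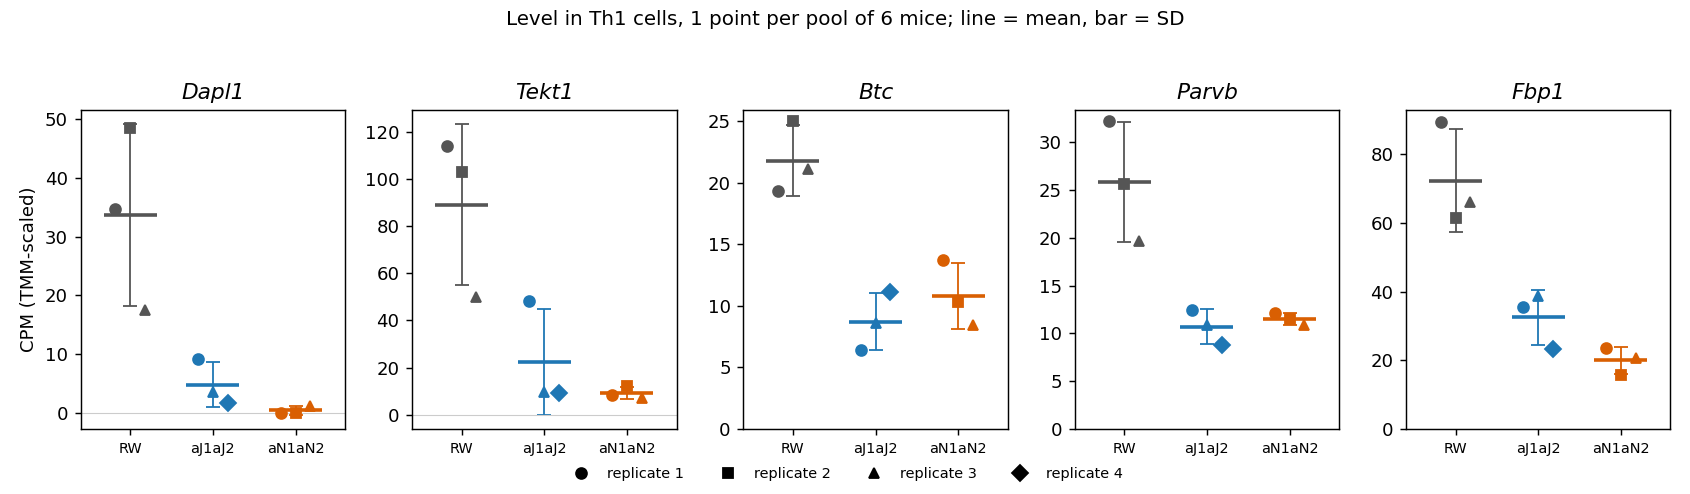
Level of each gene in Th1 cells in CPM (y axis, from the TMM-adjusted total) in the 9 pools by group (x axis), with symbols for the replicate, a line for the mean and a bar for the SD. In each panel the 3 RW points lie above all points of both blockades, and the 3 groups are separate for Dapl1 alone.

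Over all genes tested in Th1, 24 of 10627 were called lower in aJ1aJ2 than in RW (0.226%) and 41 were called higher (0.386%) at a Benjamini-Hochberg adjusted p under 0.05 in the quasi-likelihood fit of edgeR, and the choice of members used these values. The counts turned on single pools: without aJ1aJ2 3, 0 genes were called lower and 1 higher (777 genes of either direction at an unadjusted p under 0.05), and without aJ1aJ2 1, 254 were called lower and 276 higher. Ordered by log2 change among the 24, Dapl1 was at rank 1, Tekt1 at 3, Btc at 4, Parvb at 5 and Fbp1 at 6. Adamts1 at rank 2 (-2.62) was not chosen, and the next gene after Fbp1 was Derl3, which also rounded to -1.13. RW pools above aJ1aJ2 pools with no overlap were seen in 7.58% of all genes tested. Within series B, with 2 pools a group, the log2 changes were -3.72 for Dapl1, -3.50 for Tekt1, -1.16 for Btc, -1.54 for Parvb and -1.24 for Fbp1. Series A holds 1 pool a group. There, between RW 3 and aJ1aJ2 1, Dapl1 was at 17.6 and 9.14 CPM, Btc at 21.1 and 6.45, Parvb at 19.7 and 12.4, Fbp1 at 66.1 and 35.5, and Tekt1 at 50.1 and 48.4. The levels of Tekt1 were close in this pair, but 57.1% of the cells of RW 3 and 34.4% of those of aJ1aJ2 1 had a Tekt1 UMI, or 9.47% and 5.69% at 2000 UMIs a cell. Leaving out aJ1aJ2 1 alone moved the log2 change of Tekt1 to -3.18 and that of Dapl1 to -3.39.

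The receptor blockade was not used to choose the genes, although its comparison shares the RW pools with the one that was. All 5 genes were called lower in aN1aN2 than in RW, against 17.3% of all genes tested. The shared RW pools and the choice on RW above aJ1aJ2 favour this direction: of the 19 other genes called lower in aJ1aJ2, 17 also had a negative log2 change in aN1aN2 and 16 were called lower. The count of 5 is therefore nothing particular to the members, and the p-values that follow are not independent of the choice. Dapl1 fell to a single UMI in 348 cells. The ratio of RW to aN1aN2 was 123, with a 95% counting interval from 22.0 to 4890, and the adjusted p of edgeR was 3.23e-05. That UMI came from aN1aN2 3, and without this pool Dapl1 was at least 33.2-fold lower than in RW, with 3 UMIs over the group taken as its floor. Tekt1 fell by 3.20 on the log2 scale (SE 0.556, edgeR adjusted p = 0.000438). Fbp1 fell by 1.87 (SE 0.220, edgeR adjusted p = 1.27e-05). The falls of Parvb (1.15, SE 0.244, edgeR adjusted p = 0.00199) and Btc (0.914, SE 0.241, edgeR adjusted p = 0.00848) were smaller. All aN1aN2 pools lay under all RW pools for each of the 5 genes, which 23.7% of all genes tested also did. In each of the 17 alternative analyses all 5 calls were kept, with a highest adjusted p of 0.0457 for Btc, 0.0138 for Parvb, 0.00616 for Tekt1, 0.000883 for Dapl1 and 0.000279 for Fbp1.

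The direct comparison of the blockades contains the aJ1aJ2 levels that chose the members, so it is given as a description with no test. Dapl1 was lower in aN1aN2 than in aJ1aJ2 by a ratio of 19.1, with a 95% counting interval from 3.21 to 777, and without aN1aN2 3 it was at least 5.15-fold lower. For Fbp1 the log2 difference was -0.741 (SE 0.240), and it ran from -0.93 to -0.56 on leaving out single pools. For Tekt1 it was -1.11 (approximate 95% interval from -2.42 to 0.202), and -0.02 without aJ1aJ2 1. Btc and Parvb differed less, by 0.379 (-0.166 to 0.924) and 0.107 (-0.440 to 0.654). Of all genes tested, 11.5% were called lower in this comparison.

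Per-cell detection was compared at a fixed depth, as the expected share of cells with a UMI after drawing 2000 UMIs from each cell that held as many, because deeper cells show more genes. This left out 1 of 425 RW cells, 1 of 396 aJ1aJ2 cells and 25 of 348 aN1aN2 cells. For Tekt1 this share was 15.0% ± 4.88 in RW, 3.41% ± 1.98 in aJ1aJ2 and 1.58% ± 0.324 in aN1aN2 (SD, n = 3 pools each). For Fbp1 it was 11.6% ± 3.26, 5.42% ± 1.17 and 3.51% ± 0.766. For Dapl1 it was 4.28% ± 1.21, 0.909% ± 0.861 and 0.0946% ± 0.164. Parvb was detected in 4.65% ± 1.09, 2.01% ± 0.570 and 1.22% ± 0.184 of cells, and Btc in 4.32% ± 1.43, 1.49% ± 0.387 and 1.77% ± 1.03. For each gene every aN1aN2 pool lay under every RW pool, with the smallest p that 3 against 3 pools can give (two-sided exact permutation test, p = 0.1, 0.111 adjusted over 10 comparisons). Of these 10, 5 were of aN1aN2 against aJ1aJ2, which is given here without a test. The same order of aN1aN2 under RW in this share was seen in 20.0% of all genes tested. The 5 genes also kept it at 1000 UMIs, where all cells were used, and at 5000 UMIs, where 215 of the 348 aN1aN2 cells were left. In whole cells, without thinning, Dapl1 was seen in 93 of 425 RW cells, 21 of 396 aJ1aJ2 cells and 1 of 348 aN1aN2 cells. No Dapl1 UMI was seen in 158 cells of aN1aN2 1 or in 128 cells of aN1aN2 2, which at 3 counts allows a share of cells with a UMI of up to 1.90% and 2.34%. At a median of 6428.5 and 5737 UMIs a cell these limits hold for cells with a UMI, not for cells that express the gene. Intervals and limits cover counting error only.

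**Figure D2:**
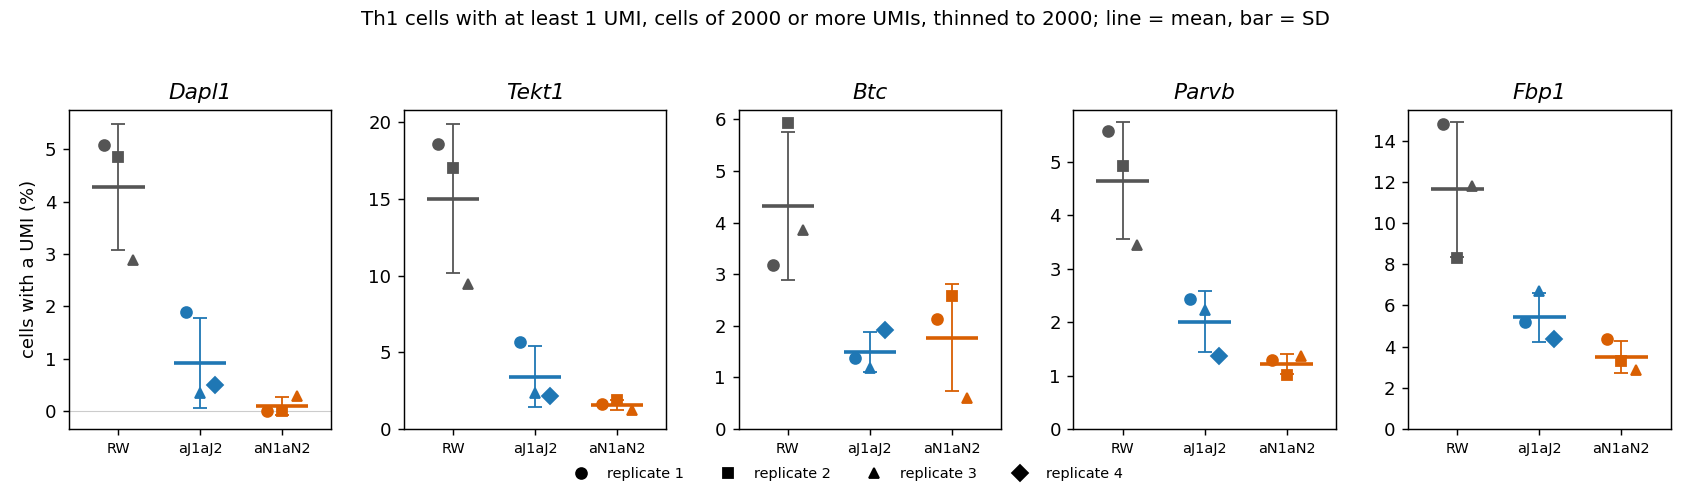
Share of Th1 cells with at least 1 UMI of each gene (y axis, %) after thinning the cells of 2000 or more UMIs to 2000, by group (x axis), with 1 point per pool, a line for the mean and a bar for the SD. Tekt1 and Fbp1 reach mean shares of 15.0% and 11.6% in RW, and both blockades lie under RW in all 5 panels.

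The members differed in how their UMIs were spread over cells. Dapl1 was concentrated: a single cell held 25.5%, 31.9% and 22.2% of its UMIs in RW 1, 2 and 3, and 10% of the cells held 80.3%, 93.1% and 80.0% of the Dapl1 UMIs in RW 1, 2 and 3. In 10% of the cells of an RW pool lay 39.4% to 48.2% of its Tekt1 UMIs and 44.2% to 61.5% of its Fbp1 UMIs. The richest cell held 3.30%, 11.1% and 4.67% of the Tekt1 UMIs and 6.47%, 27.5% and 7.37% of the Fbp1 UMIs in RW 1, 2 and 3, so that Fbp1 in RW 2 also leaned on 1 cell. Cells with 5 or more UMIs of Tekt1 numbered 65 in RW, 3 in aJ1aJ2 and 0 in aN1aN2. For Fbp1 there were 57, 10 and 0, for Dapl1 13, 2 and 0, for Parvb 10, 1 and 0, and for Btc 2, 0 and 0. These counts are of whole cells, whose depth was lowest in aN1aN2.

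**Figure D3:**
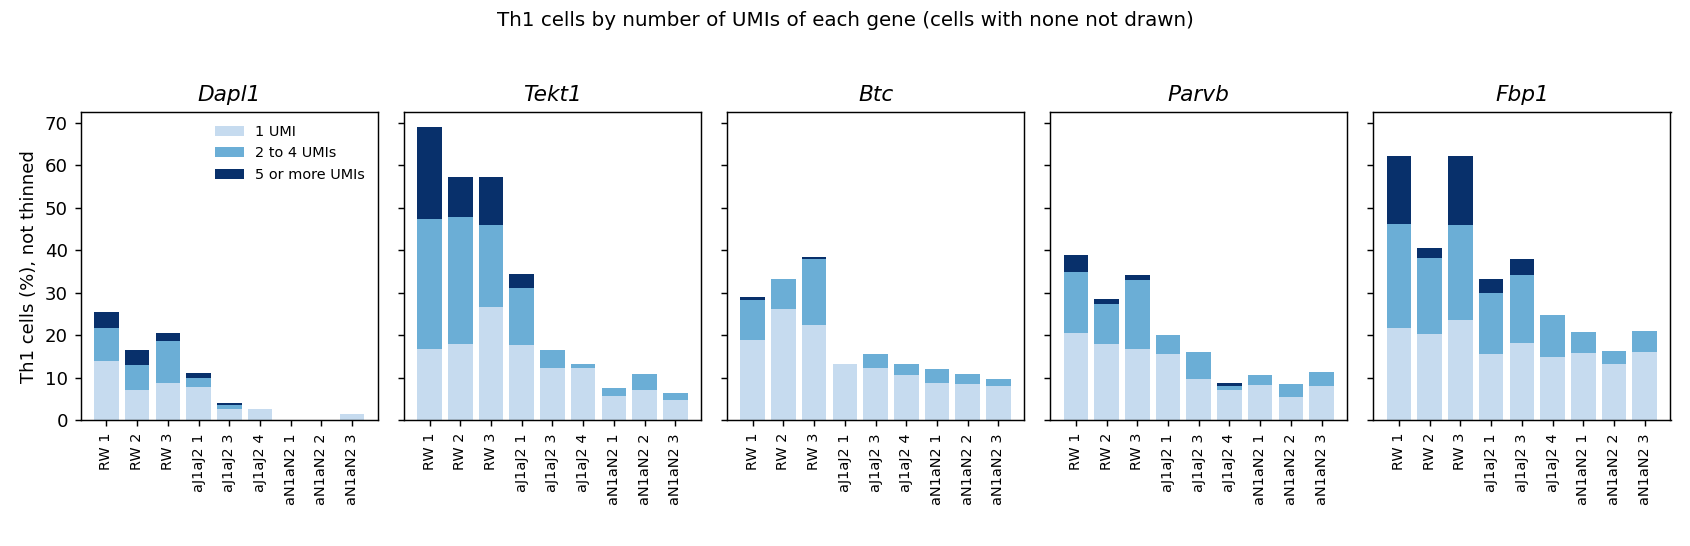
Share of Th1 cells (y axis, %, not thinned) with 1, 2 to 4, and 5 or more UMIs of each gene in each pool (x axis). The darkest class, 5 or more UMIs, makes up a visible part of the Tekt1 and Fbp1 bars in RW and is empty in the 3 aN1aN2 pools for all 5 genes.

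Within RW thyrocytes, cells with a Dapl1 UMI had more Tekt1 than cells without in all 3 RW pools: 154 against 94.8 plain CPM in RW 1, 134 against 88.5 in RW 2 and 66.1 against 41.6 in RW 3. They also had more Fbp1 (123 against 72.5, 98.2 against 44.7 and 73.6 against 60.9) and more of the thyrotropin receptor gene Tshr (135 against 93.1, 143 against 78.0 and 102 against 78.5). Parvb went the other way, with 20.0 against 38.2, 20.1 against 27.6 and 15.0 against 21.2 plain CPM. Btc was also lower in the Dapl1-positive cells of all 3 pools, and so were the thyroglobulin gene Tg and the thyroid transcription factor gene Foxe1. The transcription factor gene Pax8 was higher in 1 of the 3 pools and the iodide transporter gene Slc5a5 in 2. Several of these orders were shared with other splits: Foxe1 was lower in the positive cells of all 3 pools for each of the 5 genes, Tg also for Tekt1, and Tshr was higher in all 3 for Tekt1, Parvb and Fbp1 too. The reverse splits did not give the same order for Btc and Parvb. Cells with a Btc UMI had less Dapl1 than cells without in RW 1 (31.9 against 37.3 plain CPM) and more in RW 2 (62.7 against 34.0) and RW 3 (21.2 against 12.1). Cells with a Parvb UMI had less Dapl1 in RW 1 (11.8 against 60.4), more in RW 2 (78.3 against 29.2) and as much in RW 3 (17.2 each). Split by Tekt1, the positive cells had more Dapl1, Btc, Parvb and Fbp1 in all 3 pools. The Dapl1-positive cells were deeper, with medians of 23897, 25038 and 40747 UMIs against 15295, 12378 and 20904, and these contrasts were not tested.

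The authors' topic weights, a score of 7 topics given for 2142 cells, all 1169 Th1 cells among them, differed between the groups. Topic 1 led in 366 of the 425 RW cells and in 257 of the 396 aJ1aJ2 cells, and topic 2 led in 279 of the 348 aN1aN2 cells. Among cells led by topic 1, Tekt1 was at 84.1 plain CPM in RW and 23.3 in aJ1aJ2, Fbp1 at 78.1 and 34.2, and Dapl1 at 29.1 and 4.44. Btc was at 20.7 and 8.70 and Parvb at 22.9 and 11.1. These are the same cells whose levels chose the members, so the values are a description, and the part of the topics in the difference was not tested. How the topics were made is not given in the sources used here.

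Most UMIs of Tekt1, Btc and Fbp1 came from Th1. It held 92.6% of all Tekt1 UMIs in the RW pools, 91.0% of those of Fbp1 and 90.3% of those of Btc, and Th3, a label of shallow thyroid cells with a median of 987 UMIs, held the next largest share. The RW cells of Th1 held 11236690 UMIs in all and those of Th3 held 682848. In plain CPM, RW cells of Th3 were above those of Th1 for Fbp1 (99.6 against 74.0) and Dapl1 (83.5 against 28.4). They were below for Tekt1 (73.2 against 82.3) and Btc (16.1 against 20.6). EC1, a label whose summed endothelial markers stood at 12100 plain CPM, is given beside Th1 for comparison. Whether its cells express these genes was not tested. At 1000 UMIs a cell, Tekt1 was detected in 8.01% of RW cells of Th1 and in 0.180% of RW cells of EC1, with median depths of 17624 and 4813 UMIs. In aN1aN2 the same shares were 0.788% and 0.0461%, with medians of 6499.5 and 2752 UMIs. Dapl1 was detected in 2.30% of RW cells of Th1 and 0.0734% of those of EC1, and Fbp1 in 6.62% and 0.0868%. The EC1 value of Dapl1 rests on 2 of 661 cells, of which 1 cell of RW 3 held 14 of the 16 UMIs. In Th1 of aN1aN2, Dapl1 was at 0.0228%, and no Dapl1 UMI was seen in EC1 of aN1aN2. In Th3, Dapl1 had 44, 12 and 1 UMIs in RW 1, 2 and 3, 2, 1 and 1 in aJ1aJ2 1, 3 and 4, and 0 in each aN1aN2 pool. Tekt1 there had 31, 9 and 10 UMIs in RW, 1, 3 and 2 in aJ1aJ2 and 0 in each aN1aN2 pool, and Fbp1 had 54, 5 and 9, then 4, 3 and 5, then 0, 0 and 2. These counts were too low for the filter on low counts. Th3 held thyrocyte markers at 81500 plain CPM, beside C cell markers at 28200 and skeletal muscle markers at 16200, and their part in these counts was not tested.

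Of the Dapl1 UMIs in the RW pools, 76.7% came from Th1, 13.7% from Th3, 4.33% from T1 and 3.85% from EC1. In T1, T or NK cell markers summed to 4350 plain CPM and endothelial markers to 41.8. The level of Dapl1 in T1 was 67.4, 8.37 and 47.9 CPM in RW 1, 2 and 3 and 86.4 and 74.2 in aJ1aJ2 3 and 4. The log2 change of aJ1aJ2 against RW in T1 was 1.32 and did not pass (edgeR adjusted p = 0.999), with 0 of 2933 genes called in that label (0.0%). Without RW 2 the change was 0.551, and without RW 1 it was 1.84. aJ1aJ2 1, with 11 T1 cells, was left out of the fit and had 0 Dapl1 UMIs. The aN1aN2 pools had only 42 T1 cells, and each held fewer than the minimum of 20 for the fit. With a minimum of 10 cells they were fitted, with 10 of 1786 genes called, but Dapl1 did not pass the filter on low counts there and has no call. Of their 9 Dapl1 UMIs, 8 came from 2 cells of aN1aN2 3 (120 plain CPM), 1 from aN1aN2 1 (15.0 plain CPM) and none from the 10 cells of aN1aN2 2.

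Parvb had more UMIs in endothelial cells than in thyrocytes. The endothelial markers summed to 12100, 8670, 4570 and 11100 plain CPM in EC1, EC2, EC3 and EC4, more than any of the other marker lists in each. EC1 held 49.8% of its RW UMIs, Th1 30.3% and EC3 10.3%. After receptor blockade it rose in endothelial labels while it fell in Th1. In EC1 it was at 106, 87.0 and 88.1 CPM in RW, at 86.4, 108 and 99.7 in aJ1aJ2 and at 206, 177 and 159 in aN1aN2. All aN1aN2 pools lay above all others, and the log2 change against RW was 0.956 (SE 0.157, edgeR adjusted p = 0.000131), where 8.83% of all genes tested in EC1 were called higher. In EC4 it was at 159, 133 and 84.7 CPM in RW, at 94.9, 134 and 127 in aJ1aJ2 and at 256, 311 and 333 in aN1aN2, a log2 change of 1.23 (SE 0.271, edgeR adjusted p = 0.00142, background 11.2%). In EC2, Parvb was at 41.4 and 41.5 CPM in the 2 RW pools with enough cells, at 122 and 95.7 in aJ1aJ2 3 and 4, and at 116, 165 and 118 in aN1aN2. The log2 change of aN1aN2 against RW in EC2 was 1.68 (SE 0.483, edgeR adjusted p = 0.0282, background 8.85%), and the call was lost without RW 1 (adjusted p = 0.168), RW 2 (0.0793) or aN1aN2 2 (0.115). RW 3, with 15 EC2 cells, was left out of that fit and stood at 76.8 plain CPM, against 33.2 in RW 1 and 34.3 in RW 2. With at least 10 cells a pool, Parvb did not pass the filter on low counts in EC2 and has no call. In EC3 the change was 0.751 (SE 0.289) and did not pass (edgeR adjusted p = 0.157, background 3.51%). Ligand blockade gave no call for Parvb in any of these labels, with log2 changes of 0.09 in EC1, 1.36 in EC2 (edgeR adjusted p = 0.112), 0.03 in EC3 and 0.00 in EC4, where 0.544%, 1.08%, 0.0154% and 0.516% of all genes were called higher.

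The size of the difference between the labels was estimated with the pool as a block. This estimate was added after the opposite directions had been seen, and it contains the Th1 levels of the RW pools that chose Parvb, so it is given as a description with no test. The log2 change of Parvb under receptor blockade was higher in EC1 than in Th1 by 2.03 (SE 0.255), and by 1.87 to 2.15 on leaving out single pools. It was higher in EC4 by 2.46 (SE 0.412, 2.43 to 2.66) and in EC3 by 1.83 (SE 0.412, 1.5 to 2.07). Endothelial markers in Th1 were at 532, 439 and 376 plain CPM in RW 1, 2 and 3. They were at 214, 342 and 481 in aJ1aJ2 1, 3 and 4, and at 250, 401 and 84.8 in aN1aN2 1, 2 and 3. The part of endothelial RNA in the Th1 level of Parvb was not tested.

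**Figure D4:**
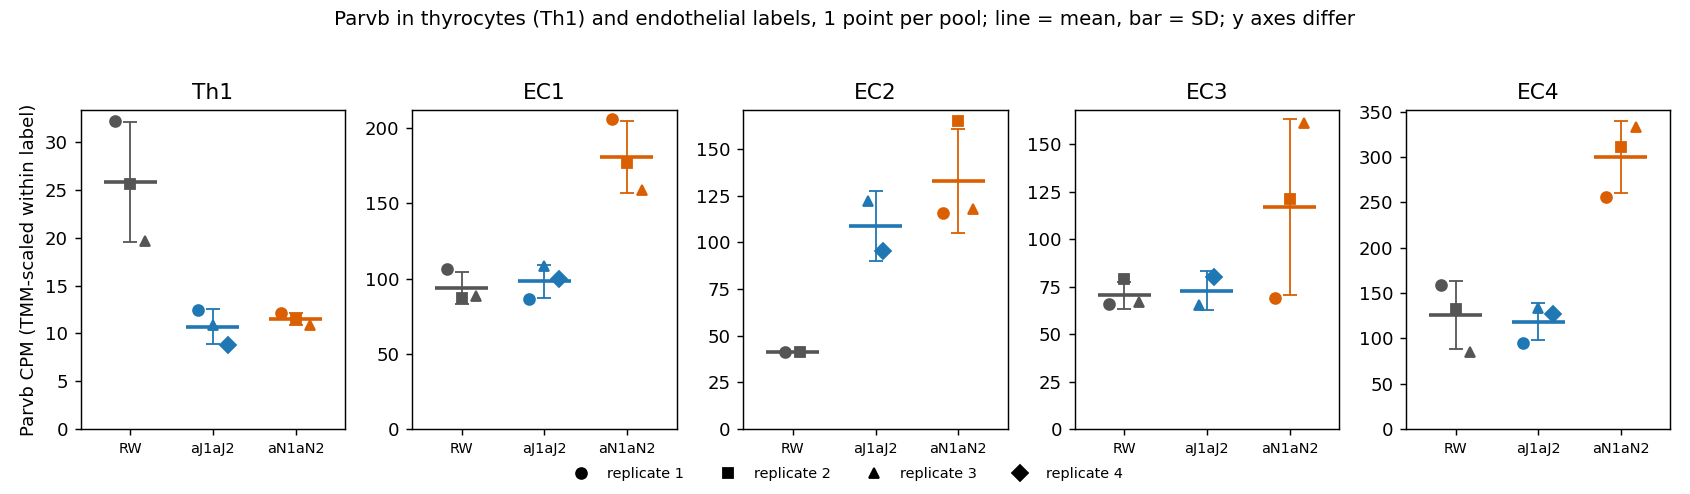
Parvb in CPM (y axis, TMM-scaled within each label, ranges differ) in Th1 and in the endothelial labels EC1 to EC4, by group (x axis), with 1 point per pool of at least 20 cells, a line for the mean and a bar for the SD. The aN1aN2 pools lie under RW in Th1 and above RW in EC1, EC2 and EC4, and aN1aN2 1 lies among the RW points in EC3.

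The other genes of the pathways around each member were counted from lists, with each gene tested singly by edgeR and the member itself left out. Over all genes tested, 17.1% were called higher and 17.3% lower in aN1aN2 than in RW. Among the EGF family of ligands, receptors and regulators around Btc, 0 of 13 tested genes were called in aJ1aJ2, and 6 were higher and 1 lower in aN1aN2, with a median log2 change of 0.418 against 0.021 over all genes. The receptor gene Erbb3 rose from 37.7 ± 8.86 to 117 ± 10.6 CPM (SD, n = 3 each, edgeR adjusted p = 3.22e-05), and Errfi1, a feedback inhibitor of EGF receptors, rose from 38.1 ± 4.24 to 85.9 ± 12.3 (edgeR adjusted p = 3.05e-05). The ligand gene Areg fell from 10.3 ± 2.51 to 0.549 ± 0.950 CPM (edgeR adjusted p = 0.00200), the same direction as Btc. Areg was at 0 in aN1aN2 2 and 3, and without aN1aN2 1 the call was kept (adjusted p = 0.00555).

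Around Parvb, 22 genes of integrin-linked kinase and focal adhesions were tested. In aJ1aJ2, 1 was higher: Actn1, which encodes an actin crosslinker, rose from 106 ± 16.0 to 178 ± 20.2 CPM (SD, n = 3 each, edgeR adjusted p = 0.0133). That call was lost without RW 1 (0.0829), RW 2 (0.0879), aJ1aJ2 3 (0.114) or aJ1aJ2 4 (0.0770). In aN1aN2, 4 were higher, among them Actn1 (181 ± 5.98 CPM) and the integrin gene Itgb5 (47.9 ± 1.96 to 108 ± 5.26 CPM, edgeR adjusted p = 1.86e-06), and 3 were lower, led by Tln2 (22.7 ± 2.33 to 10.3 ± 2.73 CPM, edgeR adjusted p = 0.00160). Another of the lower calls, Rsu1, was lost without RW 1, 2 or 3 (adjusted p = 0.0534, 0.0895 and 0.147), aN1aN2 1 (0.269) or aN1aN2 3 (0.0988). Around Fbp1, 0 of 23 genes of gluconeogenesis and glycolysis were called in aJ1aJ2, and 5 were higher and 9 lower in aN1aN2. Pfkfb3, whose product makes the allosteric activator of glycolysis, rose from 25.0 ± 6.20 to 73.7 ± 17.2 CPM (edgeR adjusted p = 2.58e-05), and Pck2 rose from 14.0 ± 1.06 to 31.2 ± 0.947 (edgeR adjusted p = 0.000136). The second bisphosphatase gene Fbp2 was at 9.89 ± 2.82 in RW and 3.79 ± 5.10 in aN1aN2 (edgeR adjusted p = 0.0164), and that call was lost without RW 1 (0.0508), aN1aN2 1 (0.127) or aN1aN2 2 (0.109). The lower call of Pcx was lost without aN1aN2 1 (0.0622) or aN1aN2 2 (0.0978).

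Few genes of motile cilia could be tested beside Tekt1. Of 21 other tektin and motile cilium genes in the table only Rfx3 passed the filter on low counts, and it was not called (log2 changes of -0.07 and 0.24). The 6 markers of ciliated cells summed to 6.11 to 10.0 plain CPM in RW, 6.61 to 8.19 in aJ1aJ2 and 2.29 to 8.0 in aN1aN2, and 1 of the 6 was at 0 in all Th1 cells. Of 23 primary cilium genes, 0 were called in aJ1aJ2, and 1 was higher and 4 lower in aN1aN2, where the transport gene Ift20 fell from 270.0 ± 31.5 to 106 ± 13.9 CPM (edgeR adjusted p = 1.88e-06). The higher call, Ift46, was lost without aN1aN2 1 (adjusted p = 0.0792), and Ift74, one of the lower calls, was lost without RW 2 (0.0749), RW 3 (0.190) or aN1aN2 1, 2 or 3 (0.0741, 0.0925 and 0.102). Around Dapl1, 0 of 17 genes of the death-associated protein family and autophagy were called in aJ1aJ2. In aN1aN2, 3 were higher and 2 were lower. The largest change was a rise, of the death-associated protein kinase gene Dapk2 from 0.651 ± 0.25 to 6.98 ± 1.41 CPM (edgeR adjusted p = 0.000101). Gabarapl1 rose from 80.4 ± 12.3 to 165 ± 20.6 CPM (edgeR adjusted p = 3.36e-05). The lower ones were Dap, the gene related to Dapl1, which fell from 302 ± 35.8 to 157 ± 5.83 CPM (edgeR adjusted p = 0.000477), and Dapk1 (128 ± 13.9 to 80.7 ± 9.66 CPM, edgeR adjusted p = 0.000985).

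Of 11 tested Notch target genes, 0 were called in aJ1aJ2, and 2 were higher and 3 lower in aN1aN2. Ccnd1 fell from 85.8 ± 8.10 to 23.5 ± 5.82 CPM (SD, n = 3 each, edgeR adjusted p = 2.16e-06) and Cdkn1a rose from 26.8 ± 6.52 to 96.9 ± 25.6 (edgeR adjusted p = 8.83e-06). Of 14 genes of thyroid function, 1 was lower in aJ1aJ2. This was Tshr, at 97.6 ± 9.80 CPM in RW and 51.6 ± 16.5 in aJ1aJ2 (edgeR adjusted p = 0.0235), a call lost without RW 1 (0.114), RW 2 (0.0879), aJ1aJ2 3 (0.180) or aJ1aJ2 4 (0.109). In aN1aN2, 2 were higher and 8 lower, led by the iodide transporter gene Slc5a5 (244 ± 44.3 to 14.7 ± 4.59 CPM, edgeR adjusted p = 9.95e-07) and the deiodinase gene Dio1 (650.0 ± 26.9 to 213 ± 9.45 CPM, edgeR adjusted p = 5.96e-07). The 2 higher calls, Pax8 and Nkx2-1, were weak: without RW 1, RW 2, aN1aN2 1 or aN1aN2 2 in turn, the adjusted p was 0.0801, 0.110, 0.0864 and 0.129 for Pax8 and 0.0767, 0.0735, 0.110 and 0.0838 for Nkx2-1, and with DESeq2 it was 0.0527 and 0.0759. Nkx2-1 was also lost without RW 3 (0.143) or aN1aN2 3 (0.105). Of 16 genes of the response to dissociation, 0 were called in aJ1aJ2 and 4 were higher and 2 lower in aN1aN2, with Zfp36 rising from 26.7 ± 9.59 to 82.6 ± 19.5 CPM (edgeR adjusted p = 0.000118). The lower call of Jun was lost without RW 1 (0.212), aN1aN2 2 (0.0924) or aN1aN2 3 (0.0864). The part of this response in the members' levels was not tested.

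Genes with the pattern most like each member were ranked by Pearson r of log2 CPM over the 9 Th1 sums, among 8693 genes with a mean of at least 10 CPM. These values describe points that share the group differences, and no test goes with them. Dapl1 was most like Nucb1 (r = 0.983), Cdh16 (0.978) and Erap1 (0.976). Tekt1 was most like Tsc22d1 (0.977), Tshr (0.974) and Plppr4 (0.973). Fbp1 was most like Atp6v0d2 (0.989), Sod3 (0.965) and Echdc1 (0.961). Parvb was most like Larp4 (0.963), Gtf2a1 (0.943) and Lbh (0.942), and Btc was most like Pafah2 (0.929), Arf2 (0.920) and Trim24 (0.919). Among the members, Dapl1 and Fbp1 were the closest pair (0.930), and Dapl1 and Btc were the farthest (0.585). With the group means removed, the closest pair was Tekt1 and Parvb (0.720), followed by Parvb and Fbp1 (0.661) and Dapl1 and Tekt1 (0.659), while Dapl1 and Fbp1 were at 0.372. Btc then ran against the others, with r of -0.654 to Dapl1, -0.507 to Tekt1, -0.371 to Fbp1 and -0.357 to Parvb.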

How the data were processed

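Thyroids of 9 pools of mice were profiled with the 10x Genomics 3' v2 kit, 1 lane per library, per the labels' protocols. The authors deposited raw UMI counts per gene and cell with an annotation table, and each value was a whole number. The submitters' processing notes name Cell Ranger and GRCm38. The cell calling, doublet treatment and labelling are not given in the sources used here. Cells held 500 to 131347 UMIs, 15 barcodes occurred in more than 1 library, and 52403 of 52636 Ensembl identifiers matched a symbol. Identifiers without one held 0.0293% of UMIs. In 2619 annotation lines an unquoted comma was corrected. The deposited topic weights, a score per cell, were used only to find each cell's leading topic.

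Counts were summed per pool and label and fitted across all genes in R 4.3.3 by the edgeR 4.0.16 quasi-likelihood method (filterByExpr, TMM, 3 group means, Benjamini-Hochberg adjustment over all genes, threshold 0.05). Labels other than Th1 needed at least 20 cells a pool and 2 pools a group. SE is the log2 change divided by the root of F. RW 3 and aJ1aJ2 1 carry no number in their titles. Shares were computed exactly at 2000 UMIs, without shallower cells. Counting intervals are exact at 95%, and limits for a count of 0 take 3 counts. The script was tested on simulated data. p-values measure the spread between pools. No doublet caller was run, and leaving out the 5% of cells with the most UMIs was an alternative, beside DESeq2 1.42.0, its size factors, no filter, Th3 pooled, 62 cells a pool, series, and leaving out each pool. Genes named from the lists were up to 2 called higher and 2 lower with the largest change per list and blockade, of which the text names some. The members, lists and tests were chosen with earlier results of these data known. Promoter sequences are from RefSeq. One gene of the marker and thyroid function lists is not reported here and was left out of both.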

Additional observations from a re-analysis of the deposited data

Results flagged for a closer look

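The change of Parvb under receptor blockade (aN1aN2 against RW) was compared between cell types with a model term for the difference. The term was added after the opposite directions had been seen, and it contains the Th1 levels of the RW pools that were used to choose Parvb, so it describes that pattern and does not test it afresh. The change was higher in EC1 than in Th1 by 2.03 on the log2 scale, in EC3 by 1.83 and in EC4 by 2.46.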

How the results depend on the processing

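All 5 falls in Th1 under receptor blockade were called in each of the 17 alternatives. The median log2 change of the members in aJ1aJ2 against RW, -1.29, ran from -1.55 to -1.26. The comparison between the blockades contains the aJ1aJ2 levels behind the choice of members, so it is described with no test. Over the alternatives its log2 difference ran from -6.68 to -3.34 for Dapl1 and from -0.93 to -0.56 for Fbp1. It ran from -1.62 to -0.02 for Tekt1, from 0.15 to 0.54 for Btc and from -0.08 to 0.19 for Parvb. Leaving out each pool's cell richest in the gene was an alternative chosen after seeing the data. The cause of these shifts was not tested. The difference for Parvb turned to -0.08 with 62 cells a pool and to -0.05 without the deepest 5% of cells. In other labels, no filter on low counts raised the calls from 0 to 1 for aJ1aJ2 and from 3 to 5 for aN1aN2, adding Dapl1, Tekt1 and Fbp1 in Th3 and losing Parvb in EC2. Over all genes of Th3, 163 of 15892 were then called for aJ1aJ2 and 421 for aN1aN2, against 0 and 105 of 2087 with the filter. The aN1aN2 cells of Th3 held 0, 0 and 2 UMIs of Dapl1, Tekt1 and Fbp1. With the filter, on leaving out single pools, the member calls stayed at 0 for aJ1aJ2 and ran from 2 to 3 for aN1aN2. The difference of Parvb between EC3 and Th1 ran from 1.5 to 2.07 on leaving out single pools. The near-zero change of Parvb in aJ1aJ2 was -0.21 in EC3 with at least 10 cells a pool, -0.02 without RW 1 or RW 3, 0.19 without aJ1aJ2 3 and -0.09 without aJ1aJ2 4. In EC4 it was 0.00 with DESeq2 size factors, 0.26, 0.02 and -0.26 on leaving out RW 1, 2 or 3 in turn, and 0.05 on leaving out aJ1aJ2 1.

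List genes called in aJ1aJ2, 2 in all, were 14 with no filter, 0 with only the 2 groups, 17 in series B alone, 5 with series as a term and 0 to 13 on leaving out single pools. All genes called in aJ1aJ2 numbered 65, 1 without aJ1aJ2 3 and 530 without aJ1aJ2 1, and in series B alone 649. RW and aN1aN2 share the numbers 1 and 2. With the replicate block over these 4 pools all 5 members stayed called, and 3524 of 10342 genes were called against 3370 without the block. Deviations of same-numbered pools from their group means correlated at 0.024 and -0.013. The RW mean includes RW 3 of another series, so these values cannot show whether same-numbered pools share more than a number. Low counts limit Dapl1 most, with 1 UMI in aN1aN2.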
